A study of Mus musculus with 32 samples.

Results

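The RNA that streptavidin recovered from resting neurons expressing Pan-TurboID (pulldown) was compared with the RNA of the same lysates before recovery (input). The libraries were chosen by their titles, 4 resting Pan pulldowns and 4 resting Pan inputs, which are 8 of the 32 libraries of the series, and they were paired by the replicate number in the title. The comparison asks which transcripts were more or less abundant among RNAs bound to biotinylated proteins of the whole resting neuron than in that neuron's lysate. The series also holds neurons depolarized with KCl and neurons expressing TurboID-PSD95, and those groups enter here only where the resting Pan difference is set against theirs.

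All 8 libraries came from primary cortical cultures of CD-1 mouse embryos, for which the labels give no genotype. The neurons carried Pan-TurboID, a TurboID without a localization signal, from a lentiviral construct driven by the doxycycline-inducible TRE3GS promoter, so the enzyme was not restricted to a neuronal type by its promoter. Cultures received cycloheximide (Chx) 2 minutes before biotin, which was given for 30 minutes, and UV crosslinking used a first pulse of 400 and a second of 200 mJ/cm2. No depolarization was applied. Pulldown and input shared all of these steps, and 15% of each lysate was set aside as the input. The comparison groups had TurboID-PSD95 in place of Pan-TurboID, or were silenced with tetrodotoxin and DL-AP5 and then depolarized in 55 mM KCl for 1 hour.

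TurboID is a promiscuous biotin ligase that tags proteins close to it, and UV light joins RNA covalently to proteins in direct contact with it. A streptavidin pulldown after UV crosslinking therefore recovers RNA attached to tagged proteins, together with RNA that binds the beads in other ways. Without a localization signal, the enzyme tags proteins of the cell at large, so the Pan pulldown serves as the whole-neuron counterpart of a compartment-specific pulldown such as that of PSD95, which organizes the postsynaptic density. A pulldown made without biotin was not analysed here, so RNA retained without biotin labelling cannot be told apart from RNA retained through it.

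The files identify transcripts by UCSC identifiers, and 0 of them could be paired with a gene symbol, so every result is given per transcript model. Markers of neurons, glia and dividing cells could therefore not be looked up, and the labelled cell type was not checked against them. In bulk libraries, fewer cells of a type and less RNA per cell cannot be told apart. All values are relative within a library, so a higher recovery of some transcripts and a lower recovery of others cannot be told apart either.

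Replicates 1 to 4 held 13.0, 10.1, 5.58 and 5.26 M estimated counts in the inputs and 13.1, 9.30, 13.1 and 19.3 M in the pulldowns, within a range of 2.95 to 19.3 M over the series. Of 51884 transcript models, 43403 were above 0 in at least 1 of the 8 libraries and 16776 in all 8. The free-text descriptions of replicate 2 name the opposite state from the titles, which were kept. The quality weights that limma estimated were lowest for replicate 2, at 0.466 for the input and 0.394 for the pulldown, against 1.06 to 2.01 for the other 6 libraries. Chi-square divided by its degrees of freedom was at least 38.2 over 12 pairs of replicates, so no file repeated another within counting noise.

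Among the most abundant transcripts, uc012eno.1 held a smaller share of every pulldown than of its input, whereas uc009sgd.1, the most abundant, moved in no common direction. The transcript uc012eno.1 (334 nt) took 5.12%, 1.70%, 6.83% and 11.4% of input reads in replicates 1 to 4. It took 0.773%, 0.434%, 0.446% and 1.44% of pulldown reads. Every pulldown lay below every input. The mean difference was -5.49 ± 3.64 percentage points (SD, n = 4 pairs), with the pulldown lower in 4 of 4 pairs (exact two-sided sign-flip permutation test, p = 0.125). With 4 pairs this test cannot give a p below 0.125, and over the 21 paired measures of this kind the Benjamini-Hochberg adjusted p was 0.202. On normalised counts, the log2 ratios of pulldown to input were -2.94, -2.26, -3.68 and -3.47. The transcript was not called by limma with its adjusted p of 0.153 (log2 difference -3.265 ± 1.397, SE). It was called by edgeR (-3.10, adjusted p = 4.469e-06) and by limma with its precision weights limited (-3.25 ± 0.27, adjusted p = 8.877e-08), so the call changed with the weights and the direction did not. Over all 18 alternatives its adjusted p ran from 1.124e-26 to 0.539, and its difference was below 0 in each.

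The transcript uc009sgd.1 (3881 nt) held 2.36%, 11.5%, 44.8% and 22.5% of input reads in replicates 1 to 4. Its share of pulldown reads was 3.50%, 2.08%, 59.8% and 6.90%. It was higher in the pulldown of replicates 1 and 3 and lower in that of replicates 2 and 4, and both fractions of replicate 3 stood above all other libraries. The difference of -2.23 ± 13.4 percentage points was smaller than its spread (exact two-sided sign-flip permutation test, p = 0.875, n = 4 pairs). It was -3.36, 0.168, -7.98 and 2.24 points when replicates 1 to 4 were left out in turn. The third, uc033jng.1 (123 nt), held 1.60%, 0.899%, 3.07% and 1.16% of input reads and 0.809%, 0.230%, 4.59% and 0.414% of pulldown reads, so it was lower in 3 pulldowns and higher in that of replicate 3. limma called uc033jng.1 lower (-2.70 ± 0.62, adjusted p = 0.00578), a value outside the range of its 4 pair log2 ratios of -2.26 to 0.84. It was not called by edgeR (-0.98, adjusted p = 0.782), by limma with limited weights (-0.78, adjusted p = 0.678), or by limma without replicate 3 (-1.36, adjusted p = 0.362) or replicate 4 (-1.95, adjusted p = 0.115), and its adjusted p ran from 7.282e-05 to 0.83 over 18 alternatives. In TPM, which divides by effective length, this 123 nt model alone took 21.1% to 88.8% of a library, and levels are therefore given below as CPM, counts scaled to library sizes that the TMM factors adjust.

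**Figure D1:**
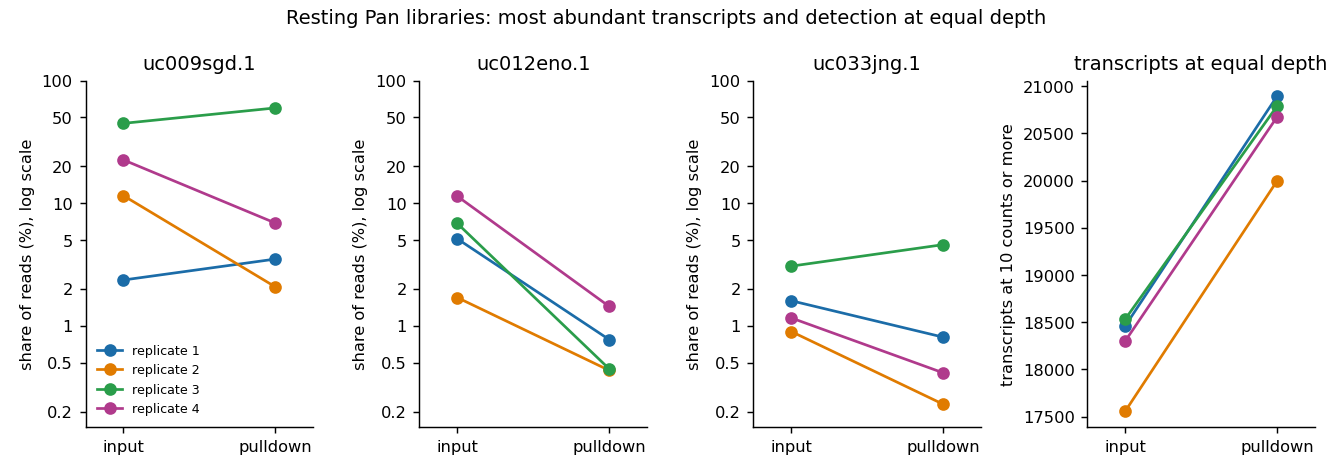
Share of reads (%, log scale) of the 3 most abundant transcripts, and number of transcripts reaching 10 counts after thinning to 2531272 reads outside those 3, in input and pulldown; lines join the libraries of a replicate (n = 4). The share of uc012eno.1 is lower and the number of transcripts higher in all 4 pulldowns, while uc009sgd.1 is higher in 2 pulldowns and lower in 2.

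At equal depth, more transcripts reached a minimum count in each pulldown than in its input. When all libraries were thinned to 5261715 reads, 21969, 19777, 18264 and 19700 transcripts reached 10 counts in the inputs. The pulldowns reached 24892, 22826, 19007 and 24632, higher in 4 of 4 pairs, although the pulldown of replicate 3 lay below the inputs of the other 3 replicates. The difference was 2912 ± 1713 transcripts (SD, n = 4 pairs, exact two-sided sign-flip permutation test, p = 0.125, the smallest it can give, adjusted p = 0.202 over 21 measures).

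The large share of uc009sgd.1 in replicate 3 leaves fewer reads for everything else, so the count was repeated on the reads outside the 3 most abundant transcripts, thinned to 2531272. The inputs then reached 18461, 17557, 18533 and 18301 transcripts and the pulldowns 20894, 19996, 20789 and 20674. The groups no longer overlapped, and the difference was 2375 ± 84.9. The share of those reads taken by the 100 most abundant of the remaining transcripts was 13.7% ± 0.339 in the inputs and 13.4% ± 0.495 in the pulldowns, a difference of -0.297 ± 0.717 percentage points (exact two-sided sign-flip permutation test, p = 0.5, n = 4 pairs).

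Across the transcriptome, 1710 transcripts were higher in the pulldown and 1569 were lower. These are 4.93% and 4.52% of 34696 tested, or 9.45% in both directions together (limma, Benjamini-Hochberg adjusted p under 0.05). An unadjusted p under 0.05 was found for 7975. This fit blocked on the replicate number and not on the lysate that a pulldown shared with its input. The median log2 difference over all tested transcripts was 0.13, and the differences below are not centred on it.

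The sets differed in level and in size of effect. Transcripts that were higher had a median level of 3.402 CPM in the input and 10.4 CPM in the pulldown, with a median log2 difference of 1.67. Transcripts that were lower had a median of 67.2 CPM in the input and 45.3 CPM in the pulldown, with a median log2 difference of -0.62. A log2 difference of at least 1 in size was reached by 1413 of the 1710, by 198 of the 1569 and by 13802 of all 34696 tested. The sets also differed in precision, with a median standard error of 0.43 in the higher set and 0.12 in the lower set. Over all tested transcripts it was 0.86. A transcript with a larger standard error needs a larger difference to be called. The median of all tested transcripts was 3.38 CPM in the input and 4.20 CPM in the pulldown, so in the input the higher set was at the typical level and the lower set was well above it. At least 1 input was at 0 for 632 of the 1710 (37.0%), and all 4 inputs were at 0 for 128, for which the fitted difference depends on the offset added to the counts. Of the 1569, 45 had all 4 pulldowns at 0. Over all 34696 tested transcripts, 49.7% had an input at 0, 1934 had all 4 inputs at 0 and 897 had all 4 pulldowns at 0.

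The same direction held in 4 of 4 pairs for 1477 of the 1710 (86.4%) and 1329 of the 1569 (84.7%), sets that were called on these pairs. Of all 34696 tested, 5153 were higher and 3348 lower in 4 of 4. All 4 pulldowns lay above all 4 inputs for 1192 of the 1710 (69.7%), where 7.81% of all tested transcripts did so. All 4 lay below for 702 of the 1569 (44.7%), against 3.34% of all tested.

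The number called and the balance of directions depended on the test, the scaling and single replicates. DESeq2 called 1939 higher and 1066 lower, and limma called 1959 and 1337 with RLE factors, 1513 and 2034 with library sizes that leave out uc009sgd.1, 759 and 1282 on the 8 libraries alone, and 809 and 1263 with each lysate as a block. edgeR called 273 higher and 348 lower, of which 269 and 347 were also called by limma in the same direction with and without limited weights. Without the replicate block, limma called 663 higher and 362 lower. Without replicate 1 the counts were 204 and 270, without replicate 2 they were 970 and 1117, without replicate 3 they were 665 and 806, and without replicate 4 they were 944 and 1175. Without the 6 libraries of the series in which uc009sgd.1 exceeded 50% of reads, 1 of which is the resting Pan pulldown of replicate 3, 1382 and 1164 were called, and with the states that the descriptions give for replicate 2, 1338 and 1224. A smooth length correction was made in each library, on its log2 levels minus the means over all 32 libraries. It changed the split to 672 higher and 4173 lower, while it moved the median of all transcripts from 0.13 to -0.28.

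The 269 higher and 347 lower transcripts that all 3 fits called give a narrower view of the same pattern. The 269 had a median length of 3376 nt, a median log2 difference of 1.31 with limited weights, and median levels of 14.2 CPM in the input and 36.7 CPM in the pulldown. The 347 had a median length of 1994 nt, a median log2 difference of -0.69, and median levels of 112 and 68.6 CPM. Models under 1000 nt made up 6.69% of the 269 and 26.2% of the 347, where they are 7.86% of all tested transcripts.

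**Figure D2:**
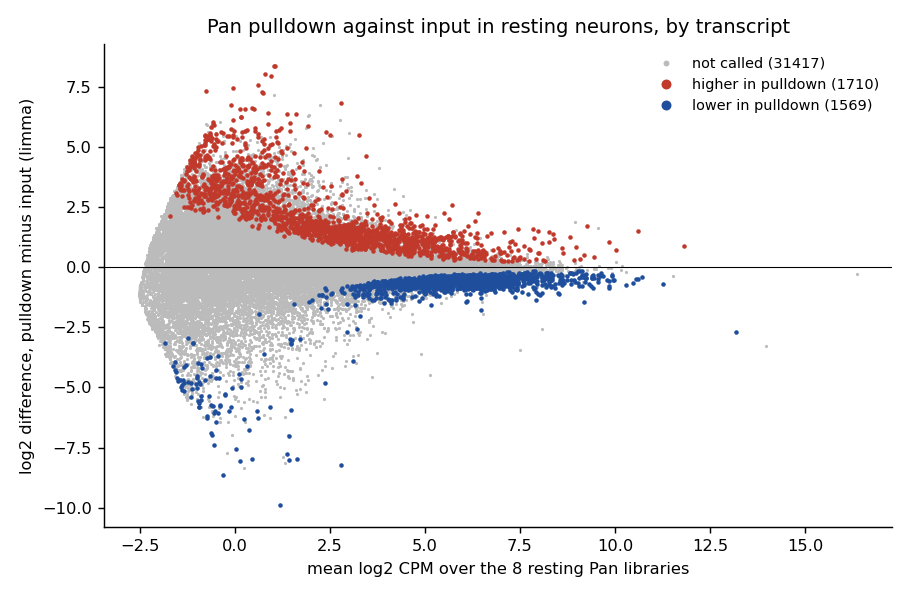
Mean log2 CPM over the 8 resting Pan libraries (x axis) against the limma log2 difference of pulldown minus input (y axis) for 34696 transcripts; red marks the 1710 called higher, blue the 1569 called lower and grey the rest. Red points reach large differences at low levels, and blue points lie mostly at high levels just below 0.

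The rule for named transcripts took those with the smallest p in each direction, and it favoured abundant models. The transcript uc008gfj.2 (6982 nt) stood at 2720, 2418, 2386 and 2028 CPM in the inputs. The pulldowns stood at 5693, 6150, 5892 and 4424 CPM. All pulldowns lay above all inputs, and replicate 4 had the lowest level in both fractions. The pair log2 ratios of uc008gfj.2 averaged 1.21 ± 0.14 (SD, n = 4), a rise of 2.31-fold by edgeR (log2 1.21, adjusted p = 4.553e-05). limma gave 0.89 ± 0.03 (SE, adjusted p = 9.092e-18), below all 4 pair ratios of 1.07 to 1.35, and 1.20 ± 0.13 with limited weights (adjusted p = 2.108e-06). The limma call of uc008gfj.2 was lost without the filter on low counts (1.303, adjusted p = 0.264), without the replicate block (0.98, adjusted p = 0.91) and without the libraries above 50% of reads in uc009sgd.1 (1.24, adjusted p = 0.375), and was kept in the other 15 alternatives.

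The transcript uc008atn.1 (7836 nt) was also higher in the pulldown. Its inputs stood at 867, 885, 740 and 1007 CPM and its pulldowns at 1454, 1324, 1005 and 1272 CPM. It rose in every pair, and the groups overlapped slightly, since the pulldown of replicate 3 lay just below the input of replicate 4. Its pair log2 ratios of 0.75, 0.58, 0.44 and 0.34 averaged 0.53 ± 0.18 (SD, n = 4). limma gave 0.72 ± 0.03 (SE, adjusted p = 2.388e-13), or 0.51 ± 0.08 with limited weights (adjusted p = 0.000196), and edgeR gave 0.52 (adjusted p = 0.00446). Its call was kept in all 18 alternatives.

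The longest named transcript, uc007aoj.2 (17210 nt), was lower in the pulldown. The inputs held 1845, 1913, 1667 and 2136 CPM, and the pulldowns held 1167, 1153, 862 and 1210 CPM. No pulldown reached the lowest input. The pair log2 ratios were -0.66, -0.73, -0.95 and -0.82, a mean of -0.79 ± 0.13 (SD, n = 4). limma gave -0.66 ± 0.02 (SE, adjusted p = 1.786e-16), or -0.81 ± 0.09 with limited weights (adjusted p = 1.623e-06), and edgeR gave -0.79 (adjusted p = 0.000128).

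The transcript uc007xok.1 (1591 nt) stood at 2131, 1377, 1278 and 1458 CPM in the inputs and at 1198, 912, 844 and 1270 CPM in the pulldowns. It fell in every pair, most in replicate 1 and least in replicate 4, and all pulldowns lay below all inputs. The pair log2 ratios averaged -0.56 ± 0.26 (SD, n = 4), where limma gave -0.75 ± 0.03 (SE, adjusted p = 6.875e-15), or -0.53 ± 0.14 with limited weights (adjusted p = 0.0138), and edgeR gave -0.56 (adjusted p = 0.0458). The calls of uc007aoj.2 and uc007xok.1 were kept in all 18 alternatives, but the difference of uc007xok.1 was -0.26 without replicate 1, -0.46 with a mean CPM of at least 5, -0.49 by DESeq2 and -1.13 with the length correction. In the limma fit, the precision weights of the libraries differed widely for many of the abundant transcripts. For uc008gfj.2, uc008atn.1, uc007aoj.2 and uc007xok.1, the highest weight was 1.774e+09, 1.129e+07, 2.368e+05 and 7.827e+07 times the lowest. Their small limma standard errors and p-values therefore do not measure the spread over the 4 pairs. The SDs of the pair log2 ratios give that spread. Of the 75 tested transcripts with a mean log2 CPM of 9 or more, 54 had a highest weight over 1000 times the lowest, and 10 of the 55 called had a fitted difference outside the range of their 4 pairs. With limited weights 42 of the 75 were called, 40 of them in both fits.

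**Figure D3:**
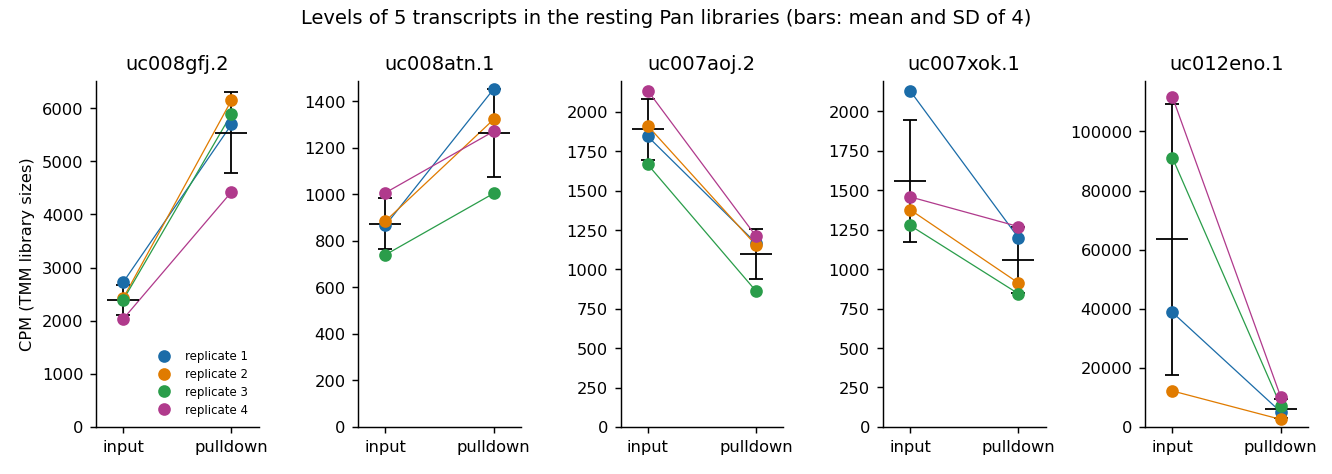
CPM on TMM-scaled library sizes of 4 transcripts named by the smallest p and of uc012eno.1, in input and pulldown; points are libraries, lines join the libraries of a replicate, and bars give the mean and SD of 4. Both transcripts on the left are higher in all 4 pulldowns, and the 3 on the right are lower in all 4.

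The balance of calls changed with level. In the most abundant quintile of tested transcripts, 437 of 6939 were higher (6.30%) and 1340 were lower (19.3%). In the middle quintile, 349 were higher (5.03%) and 19 were lower (0.274%). Most of the transcripts called lower thus lay in the top quintile, where the median standard error of the log2 difference was 0.17, against 0.89 in the middle quintile. Transcripts whose estimated counts were whole numbers in every library had 118 of 3789 higher (3.11%) and 437 lower (11.5%). Those with split counts had 1592 of 30907 higher (5.15%) and 1132 lower (3.66%).

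The balance also changed with the length of the transcript model, and not in 1 direction only. Each length range below includes its lower bound and not its upper one. Models of 300 to 500 nt had 61 of 357 lower (17.1%) and 8 higher (2.24%), and models of 500 to 1000 nt had 202 of 2119 lower (9.53%) and 43 higher (2.03%). Models under 300 nt had 35 of 252 higher (13.9%) and 2 lower (0.794%). Models of 2000 to 4000 nt had 838 of 14843 higher (5.65%) and 469 lower (3.16%), and those of 8000 nt or more had 51 of 1165 higher (4.38%) and 121 lower (10.4%). The shortest models thus went against the classes next to them. Level was not held constant between the classes. Models of 8000 nt or more had a median mean log2 CPM of 3.96 and a median standard error of 0.50. Those of 2000 to 4000 nt had 1.21 and 0.87.

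**Figure D4:**
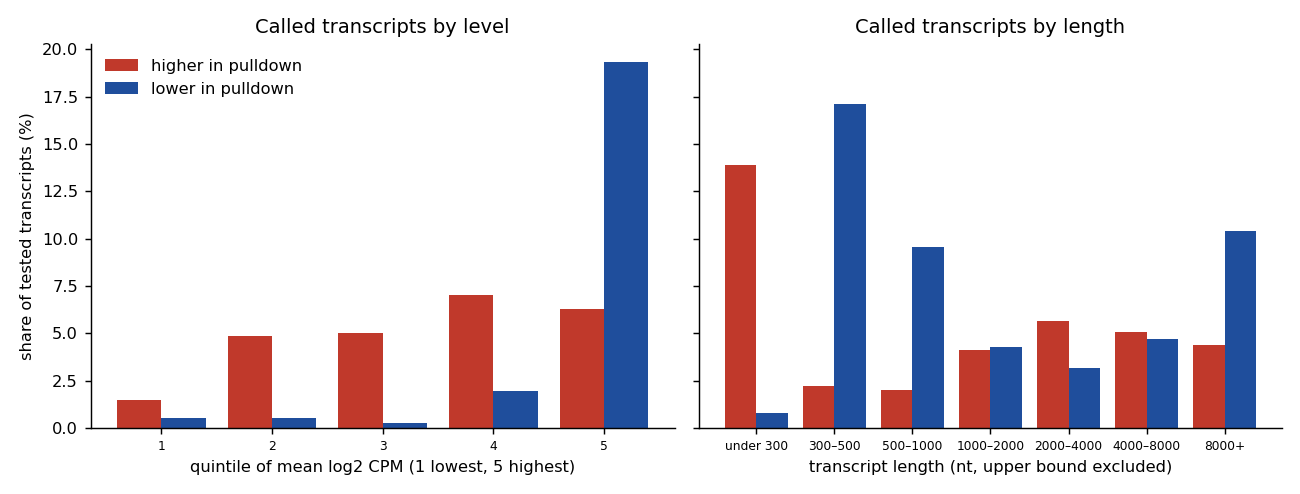
Share of tested transcripts (%) called higher (red) or lower (blue) in the resting Pan pulldown by limma, by quintile of mean log2 CPM (left) and by length class in nt (right). The most abundant quintile has 19.3% lower, models of 300 to 500 nt have 17.1% lower, and models under 300 nt have 13.9% higher.

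Length was then examined in each replicate on its own, in the 8705 transcripts that averaged 200 counts or more, as the median log2 ratio of a class minus the median of all transcripts of that pair. The 61 models under 500 nt stood at -0.78, -0.91, -0.57 and -0.45 in replicates 1 to 4, a mean of -0.68 ± 0.21 (SD, n = 4). The 295 models of 500 to 1000 nt stood at -0.48, -0.58, -0.42 and -0.36 (-0.46 ± 0.09), and the 1171 of 1000 to 2000 nt at -0.18, -0.14, -0.12 and -0.06 (-0.13 ± 0.05). All 3 classes were below the median of the pair in every replicate. The 3367 models of 2000 to 4000 nt (0.05 ± 0.03) and the 3140 of 4000 to 8000 nt (0.06 ± 0.05) were above it in every replicate, by far less. The 671 models of 8000 nt or more were above it in replicates 1 and 2 and below it in replicates 3 and 4 (-0.01 ± 0.07). The exact two-sided sign-flip permutation test gave p = 0.125, the smallest for 4 pairs, for the first 5 classes and p = 0.875 for the last, or 0.15 and 0.875 adjusted over the 6 classes.

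Splitting the shortest class, a choice made after its values were seen, separated opposite directions. The 52 models of 300 to 500 nt stood at -0.81, -1.01, -0.63 and -0.52 (-0.74 ± 0.22), and 43 of them (82.7%) were below the median of the pair in 4 of 4 replicates, as were 171 of the 295 of 500 to 1000 nt (58.0%), against 18.5% of all 8705. The 9 models under 300 nt stood at 0.60, 1.08, 2.41 and 2.10 (1.55 ± 0.85), and 6 of the 9 were above the median in 4 of 4, against 18.9% of all 8705. Models of 300 to 1000 nt thus lay below the rest in each pulldown, and the median of the 9 models under 300 nt lay above it by a widely varying amount. Its members did not all follow, since 1 of the 9 was below the median of the pair in 4 of 4. The most abundant of the 9, uc033jng.1 (123 nt), had uncentred pair log2 ratios of -1.20, -2.26, 0.84 and -1.97.

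**Figure D5:**
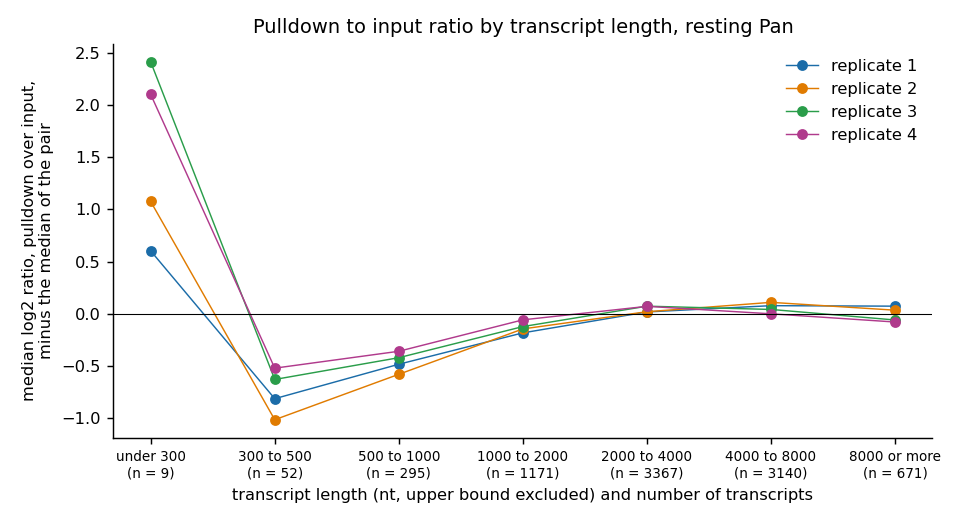
Median log2 ratio of pulldown over input by length class (nt), minus the median of all 8705 transcripts of the pair, with 1 line per replicate (n = 4). All 4 lines lie above 0.5 under 300 nt, below -0.5 at 300 to 500 nt and between -0.08 and 0.11 from 2000 nt upward.

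Shares of reads by length class need no ratio per transcript. Of the reads outside the 3 most abundant transcripts, models of 500 to 1000 nt held 3.79%, 3.82%, 3.41% and 3.64% in the inputs and 2.87%, 2.91%, 2.75% and 2.94% in the pulldowns. These groups did not overlap, and the difference was -0.802 ± 0.136 percentage points (n = 4 pairs). Models of 300 to 500 nt went from 0.762% ± 0.181 to 0.503% ± 0.0641, lower in 4 of 4 pairs, and those of 2000 to 4000 nt from 31.4% ± 0.652 to 33.04% ± 0.412, higher in 4 of 4. Models of 4000 to 8000 nt went from 35.9% ± 1.01 to 36.4% ± 0.736, higher in 3 of 4, and those of 8000 nt or more from 15.7% ± 0.522 to 15.1% ± 0.336, higher in 1 of 4. Models under 300 nt went from 0.183% ± 0.0712 to 0.305% ± 0.0916, higher in 3 of 4. The 3 transcripts left out include uc033jng.1 (123 nt), so this rise describes only the rest of that class. Alone, uc033jng.1 held 1.60%, 0.899%, 3.07% and 1.16% of all input reads. Its share of all pulldown reads was 0.809%, 0.230%, 4.59% and 0.414%, lower in 3 of 4 pairs. Across transcripts, which are not independent replicates and share libraries, the rank correlation of the ratio with length was weak at 0.20, 0.12, 0.06 and 0.02 in replicates 1 to 4.

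Single ratios repeated only partly between replicates. Across the 8705 transcripts, the correlation of the log2 ratios of a replicate with those of another averaged 0.18 (0.15 to 0.21 over the pairs of replicates). It averaged 0.38 for the 1794 transcripts that averaged 1000 counts or more, and 0.52 for the 1253 whose counts were whole in every library, against 0.17 for the 7452 with split counts. These values describe the libraries across transcripts and carry no test. The same sign in all 4 replicates was found for 3408 of the 8705 (39.1%), for 628 of the 1253 (50.1%) and for 2780 of the 7452 (37.3%).

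The closest comparisons in the series are the pulldown against input of depolarized Pan cultures and of resting PSD95 cultures, which share no libraries with the resting Pan comparison but carry the same replicate numbers. Of the 1710 transcripts higher in the resting Pan pulldown, 594 were also higher after depolarization (34.7% of the 1710 and 47.6% of the 1247 called there), and 559 were higher in the resting PSD95 pulldown (32.7%, and 51.2% of 1091). Of the 1569 lower, 923 were lower after depolarization (58.8%, and 59.8% of 1544) and 964 in resting PSD95 (61.4%, and 67.7% of 1424). The background of calls was 3.59% higher and 4.45% lower in depolarized Pan, 8.04% together, and 3.14% and 4.1% in resting PSD95, 7.25% together. This background was not matched for level. Of the 1569 lower, 1340 lay in the most abundant quintile, where 19.3% of tested transcripts were called lower in resting Pan. These comparisons also came from the same fit, which shares an estimate of spread for each transcript. A total of 883 of the 1710 (51.6%) and 369 of the 1569 (23.5%) were called in neither, which does not show that they differed there.

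The test of the difference itself called few transcripts. Between resting and depolarized Pan, the difference of pulldown and input differed for 5 of 34696 transcripts (0.0144%) by limma, 3 higher (0.00865%) and 2 lower (0.00576%), against 2602 with an unadjusted p under 0.05. edgeR called 1 and DESeq2 610. Leaving out replicates 1 to 4 in turn gave 4, 2, 0 and 4, and limited weights gave 0. Between resting Pan and resting PSD95, limma called 2, both lower (0.00576%), and 0 higher, against 2104 with an unadjusted p under 0.05. edgeR called 0 and DESeq2 498. Leaving out replicates 1 to 4 in turn gave 0, 1, 0 and 2, and limited weights gave 0.

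By the rule for named transcripts, uc007qbd.1 (1922 nt) was named as less depleted at rest than after depolarization. The resting inputs held 899, 708, 527 and 699 CPM and the resting pulldowns 569, 529, 391 and 622 CPM. The depolarized inputs held 1511, 1279, 990 and 864 CPM and the depolarized pulldowns 794, 807, 504 and 597 CPM. The pulldown was lower than its input in every pair of both states, by less at rest, and the levels differed more between the inputs of the states than between their pulldowns. The difference was 0.61 ± 0.10 (SE, limma, adjusted p = 0.0306), or 0.45 ± 0.17 with limited weights (adjusted p = 0.566). Its call was kept in 2 of 11 alternatives. The difference of uc007xok.1, which is below the size the rule requires and is given after its value was seen, was 0.43 ± 0.04 (SE, limma, adjusted p = 3.567e-06). It was 0.27 ± 0.20 with limited weights (adjusted p = 0.806) and 0.12 ± 0.09 with each lysate as a block (adjusted p = 0.997), and edgeR (adjusted p = 1), DESeq2 (adjusted p = 0.836) and limma without the replicate block (adjusted p = 0.98) did not call it either.

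The transcript uc012fww.1 (2255 nt) was named in the other direction. At rest its inputs held 11.004, 6.96, 7.41 and 7.09 CPM and its pulldowns 8.95, 12.3, 11.7 and 11.01 CPM, which overlap. After depolarization the inputs held 5.54, 0.465, 0 and 0 CPM and the pulldowns 18.5, 28.6, 9.51 and 11.7 CPM. The difference of -4.52 ± 0.77 (SE, limma, adjusted p = 0.0306) thus rested on the depolarized inputs, 2 of which were at 0, and it was not called with limited weights (adjusted p = 0.16) and was kept in 1 of 11 alternatives.

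Against resting PSD95, the rule named uc012bwg.2 (4402 nt). The resting Pan inputs held 9.20, 23.3, 22.5 and 14.4 CPM, and its pulldowns held 0, 20.9, 0 and 0 CPM. The PSD95 inputs held 0, 1.11, 4.88 and 4.85 CPM and the PSD95 pulldowns 10.7, 15.7, 12.02 and 19.0 CPM. The pulldown of replicate 2 thus stood apart from the other 3, and the levels of the inputs also differed between the constructs. The fitted difference of -11.02 ± 1.81 (SE, limma, adjusted p = 0.0454) depends on the offset added to counts of 0 and is not a measured fold. It was not called with limited weights (adjusted p = 0.0854) or by edgeR (adjusted p = 1), and was lost in all 11 alternatives.

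The length pattern was set against the same comparisons, replicate by replicate. Models under 500 nt were lower at rest than after depolarization by -0.57, -0.87, -0.06 and -0.39 (-0.47 ± 0.34, SD, n = 4), and models of 500 to 1000 nt by a mean of -0.22 ± 0.21. The first was lower in 4 of 4 replicates (exact two-sided sign-flip permutation test, p = 0.125, adjusted p = 0.75 over 12 differences) and the second in 3 of 4 (p = 0.25 by the same permutation test). Against resting PSD95, the differences were 0.05 ± 0.22 and 0.02 ± 0.13 (p = 0.75 for both by the same permutation test), each above 0 in 2 of 4 replicates. With 4 pairs, a p of 0.125 is the smallest this test can give, so these p-values do not show whether the length pattern differed between the comparisons.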

How the data were processed

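Groups came from the sample titles, 4 libraries each, which are biological replicates by the study's methods. Transcripts were quantified by the authors with salmon on mm10 models of UCSC knownGene (salmon version not given in the sources used here), and DESeq and limma also appear in the submitters' processing notes. The deposited files hold estimated counts, in which reads matching several models are split, and TPM, scaled by the authors per library and by effective length. Estimated counts were rounded for the tests. A count was called whole within 0.001, in 8856 transcripts. The study kept the longest transcript per gene, whereas every model was used here.

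limma 3.58.1 (voomWithQualityWeights, R 4.3.3) was fitted to all 32 libraries with terms for 8 groups and the replicate number, TMM factors and filterByExpr of edgeR 4.0.16, and two-sided Benjamini-Hochberg adjusted p under 0.05. The replicate term is shared by all 8 groups, so the main fit does not model each pair of pulldown and input from 1 lysate. CPM used a prior count of 2 in log2 ratios. Same-numbered input and pulldown residuals correlated with r of 0.0989 to 0.21 (mean 0.134). Different numbers gave r of -0.156 to 0.0809 (mean -0.0411). The study processed samples of a replicate together. Named transcripts had the smallest p among called ones that averaged a log2 CPM of 1 or more, differed by 0.5 or more in size and moved 1 way in 4 of 4 pairs, 2 per direction and contrast, plus the 3 most abundant. The members, lists and rules were chosen with earlier results of these data known. Alternatives were DESeq2 1.42.0, the quasi-likelihood test of edgeR, no quality weights, RLE factors, other filters, other blocks, the 8 libraries alone, the states in the descriptions, a lowess length correction (span 0.3), and leaving out each replicate. After the data were seen, voom weights limited to their 99th percentile, leaving out libraries over 50% in uc009sgd.1, counting without the 3 most abundant transcripts, thinned counts and a split at 300 nt were added. In simulated counts for this comparison (32587 tested), limma found 8 of 100 true 2-fold changes and 29 of 100 true 4-fold changes, with 3 unchanged transcripts called. edgeR found 5 and 25 with 0, and DESeq2 18 and 52 with 332. The changed transcripts were drawn from those averaging at least 2 CPM, so recovery below that level was not measured. Effects of replicate, lysate and library quality were not simulated. Gene lists and cell type markers were not run, because no identifier matched a gene name. Figures were drawn with matplotlib 3.10.9.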

Additional observations from a re-analysis of the deposited data

Results flagged for a closer look

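In 7 of 70 groups of 4 libraries, 1 library lay far from the other 3 (Dixon's test, which marks about 1 group in 20 by chance). In the pulldown of replicate 3, uc009sgd.1 held 59.8% of reads, uc033jng.1 held 4.59%, 14416 transcripts reached 20 counts after thinning all reads, and uc007aoj.2 stood at 862 CPM. In the pulldown of replicate 2, the quality weight was 0.394 and uc012bwg.2 stood at 20.9 CPM where the other 3 were at 0. In the input of replicate 1, uc012fww.1 stood at 11.004 CPM.

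A test of the difference between comparisons called the following transcripts in limma at an adjusted p under 0.05, and none of them with limited weights. Resting minus depolarized Pan, the log2 difference was 0.43 for uc007xok.1, 0.42 for uc009ozx.3 (2104 nt), 0.61 for uc007qbd.1, -1.26 for uc029six.1 (325 nt) and -4.52 for uc012fww.1. The direction was the same in 4 of 4 replicates for all of these except uc029six.1, for which it held in 2 of 4. Resting Pan minus resting PSD95, it was -11.02 for uc012bwg.2, in 4 of 4 replicates, and -0.37 for uc008gfj.2, in 1 of 4. Because uc009ozx.3, uc029six.1 and, in these contrasts, uc007xok.1 and uc008gfj.2 lie outside the rule for named transcripts, they were chosen after their values were seen.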

How the results depend on the processing

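The count of 3279 transcripts called between pulldown and input became 621 by edgeR, 2041 with the 8 resting Pan libraries alone, 2072 with each lysate as a block, and 474 to 2119 when 1 replicate was left out. Without the replicate block it was 1025 (663 higher, 362 lower), and the numbers pair the samples by the study's processing, with every same-numbered pair near or above 0.1. The count against depolarized Pan (5) became 1 by edgeR, 610 by DESeq2, 0 without the block, 10 with the lysate block, 0 with limited weights and 0 to 4 without 1 replicate. That against resting PSD95 (2) became 0 by edgeR, 498 by DESeq2, 1 without quality weights, 0 without the block, 12 with the lysate block, 1 without libraries over 50% in uc009sgd.1, 0 with limited weights and 0 to 2 without 1 replicate. The cause was not tested. DESeq2 called 332 unchanged transcripts in simulated counts, but only pulldown against input was simulated. The simulation therefore does not bear on the counts against depolarized Pan and resting PSD95.

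The class medians moved as follows. With a mean count of at least 50, they were -0.45 under 500 nt, 0.0063 at 4000 to 8000 nt and -0.11 at 8000 nt or more, and with at least 1000, -0.22 at 1000 to 2000 nt. With whole counts, they were -0.43 under 500 nt, 0.081 at 2000 to 4000 nt and 0.094 at 8000 nt or more, with a rank correlation of 0.27. By effective length, 500 to 1000 nt gave -0.36. Members under 300 nt alone reversed the shortest class to 1.55. Among named transcripts, uc009sgd.1 (-0.30 in limma, adjusted p = 0.839) turned to 0.64 and uc033jng.1 to 0.46 with the 8 libraries alone, and uc009sgd.1 to 0.088 with the states in the descriptions. Over the main results, 96 of 131 values stayed within 1.5 times the main count or within 1 SD of the main value, some of them near 0 with another sign. Over named transcripts, 104 of 158 kept direction and side of the threshold. Estimated counts can move between overlapping models, and most transcripts had sparse counts. Whether either limited the single ratios was not tested.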
